A study of Rattus norvegicus with 24 samples.

Results

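The comparison described here set 3 arrays of left ventricle from Dahl salt-sensitive rats fed high salt against 3 arrays from control rats, at the time point labelled 15 weeks. Arrays were chosen by the group and week in their titles, which gave 6 of the 24 columns of the series, and of the 8740 probe sets that are not array controls, 6555 were bright enough to be tested. Dahl salt-sensitive rats are an inbred strain whose blood pressure climbs on a salty diet, and the rats of both groups arrived at 5 weeks of age. From 6 weeks of age the high salt rats ate chow containing 6% NaCl, while the controls were sedentary, age-matched rats on normal chow. The labels do not say from when the 15 weeks were counted, nor that each array came from its own animal, and the p-values below reflect array-to-array spread, which may be technical. The labels describe high salt as a model of pathologic hypertrophy. The question was how the ventricle on salt differed from its control late on the diet.

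A ventricle under sustained pressure thickens, switches on peptides and contractile isoforms of the fetal heart, and remodels the matrix between its myocytes. Its main fuel is fatty acid, and the choice between fatty acid and glucose is set at the mitochondrial entry of pyruvate and at the glucose transporters. The tissue also holds fibroblasts, vessel cells, immune cells and blood, and each contributes transcripts to RNA taken from the whole ventricle. In such bulk RNA, fewer cells of a type and less RNA per cell cannot be told apart.

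Each probe set gave 1 linear intensity per array, deposited on a common scale. Changes are given as the mean of log2(intensity + 40) in the salt arrays minus that in the controls, with the standard error (SE) from limma. The added 40 makes this scale understate the change of dim probe sets. A probe set is called, and said to have risen or fallen, where its adjusted p was under 0.05. No level is compared between probe sets, since each binds its target with its own strength. The summed intensities given for some lists are weighted towards their brightest probe sets. Both groups carried the markers of ventricle. The intensities of 13 ventricular myocyte markers summed to 483435 to 554990 in the controls and 425829 to 571412 with salt, and 0 of the 13 were called.

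Of 6555 probe sets tested, 469 were called, or 7.15%, of which 215 rose (3.28%) and 254 fell (3.87%). The median change of a probe set that rose was 1.23 and of one that fell -1.05, beside a median of -0.04 over all tested. Rises reached further than falls, since 23 probe sets rose by more than 2 and 9 fell by more than 2. The salt and control arrays did not overlap in 1365 probe sets (20.8%), with salt higher in 549 (8.38%) and lower in 816 (12.4%). A gene was then represented by its brightest tested probe set, which gave 115 genes that rose (3%) and 147 that fell (3.84%) among 3830, or 6.84% in all. Fewer probe sets passed without certain arrays: 213 without the control numbered 2, 282 without the control numbered 3 and 294 without the salt array numbered 1. Without the salt array numbered 3, the rises numbered 126. With all 6 arrays of 15 weeks fitted alone, 266 were called.

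**Figure D1:**
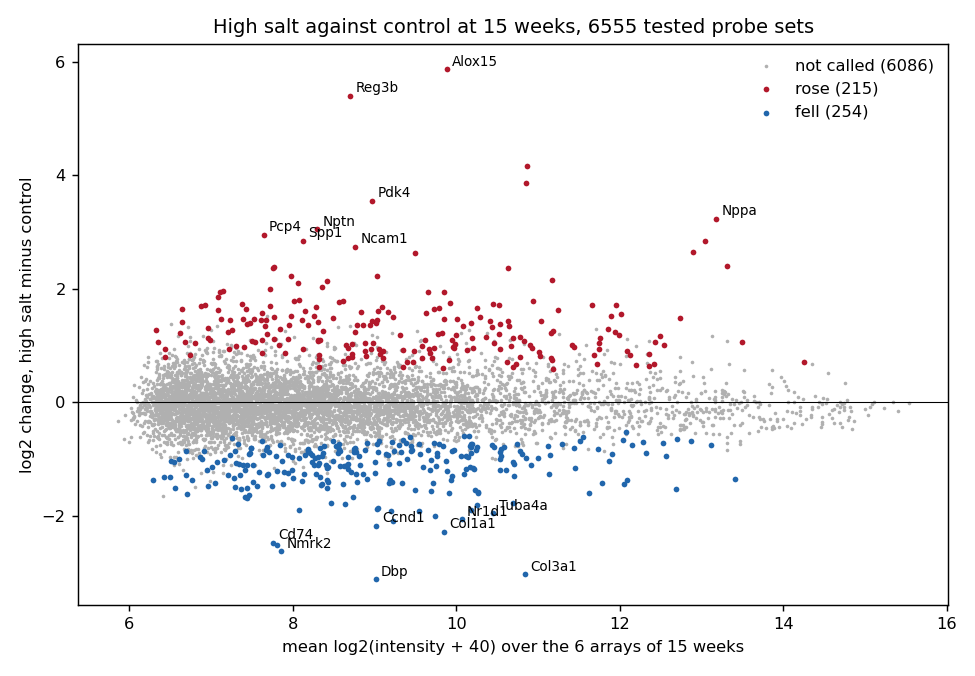
Change with salt at 15 weeks (log2 scale, vertical axis) against the mean level over the 6 arrays (horizontal axis, log2 of intensity plus 40) for each of the 6555 tested probe sets. The 215 red points rose and the 254 blue points fell; Alox15 at 5.87 and Dbp at -3.12 are the named extremes of either side.

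The arrays of a group were alike but not equal. Across probe sets, the log2 values of 2 controls correlated at 0.955 to 0.963, those of 2 salt arrays at 0.933 to 0.968 and those of a control with a salt array at 0.912 to 0.952. The array carries probe sets at both ends of GAPDH, whose 3' to 5' intensity ratio climbs as RNA degrades. That ratio was 1.09, 1.52 and 1.58 in the controls numbered 1, 2 and 3, and 1.11, 1.16 and 1.11 in the salt arrays. The control numbered 1 thus matched the salt arrays, and the other controls lay above them. For beta-actin the ratio was 1.14, 1.27 and 1.56 in controls and 1.68, 1.32 and 1.57 with salt, so this gene did not follow GAPDH. For hexokinase it was 2.02, 3.02 and 2.35 in controls and 2.29, 1.8 and 2.19 with salt. Its mean was higher in controls (2.47 against 2.09), as for GAPDH, though the groups overlapped. The control numbered 1 had the lowest ratio of the controls for each of these genes. With the GAPDH ratio as a covariate in the model, 399 probe sets were called (6.09%), 356 of them among the 469, and all 469 kept their sign. Of 139 called probe sets followed singly, 17 lost the call in this GAPDH model, and such losses are given beside the genes below. With the control numbered 1 as the only control of 15 weeks, a fit chosen after the data were seen, 56 were called; a lone array has no spread of its own, so it was assumed to vary like the other groups. That control lay nearer to the salt mean than to the mean of the other controls in 46 of the 215 rises (21.4%) and 24 of the 254 falls (9.45%), beside 50.4% of all tested probe sets. A call favours probe sets whose controls lie together and apart from salt. The lower shares among called probe sets are therefore a description and do not show how alike that control and the salt arrays were.

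Genes of ventricular load moved unevenly. Nppa, which encodes atrial natriuretic peptide, rose strongly, while Nppb, encoding the B-type peptide, was not called. At the Nppa probe set with the largest change, the controls read 1973, 3292 and 4050 and the salt arrays 25170, 30011 and 29964. The lowest salt array stood above the highest control, and the change was 3.23 ± 0.33 (adjusted p = 7.34e-06). The other 3 Nppa probe sets rose by 2.41 to 2.84. For Nppb the controls read 3953, 3095 and 4348 and the salt arrays 3314, 3723 and 1959, so the groups overlapped (-0.37 ± 0.28, adjusted p = 0.518). Acta1, the skeletal actin isoform that the fetal ventricle uses, read 5996, 9151 and 9014 in controls and 19009, 17933 and 13408 with salt. All 3 salt arrays were higher, by 1.07 ± 0.18 (adjusted p = 0.000957). Of 15 measured natriuretic, fetal and stress genes, 2 rose (Nppa and Acta1) and 1 fell (Tpm4, a tropomyosin of non-muscle cells, -1.02 ± 0.20). Atria make Nppa at a high level, and of 7 atrial myocyte markers only Nppa was called at its brightest probe set. The list had a median of 0.34 (0.19 in the GAPDH model), with 4 of the 7 above 0 and 3 below. Pam read 12222, 12286 and 12055 in controls and 14932, 21774 and 18279 with salt, without overlap and without a call (0.57 ± 0.19, adjusted p = 0.073). Myl4 changed by 0.49 ± 0.31 and Gja5 by -0.23 ± 0.18, both with overlap. The atrial light chain Myl7 stayed at 361, 309 and 474 in controls and 437, 313 and 334 with salt (-0.06 ± 0.22). The part of atrial tissue in the Nppa rise was not tested.

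Contractile and calcium genes were mostly uncalled. Among 22 sarcomere and Z-disc genes, 2 rose and 0 fell, with a median of -0.05. Besides Acta1 the riser was Pdlim5, a Z-disc scaffold, whose brightest probe set read 30.2, 122 and 146 in controls and 303, 427 and 1020 with salt (2.11 ± 0.41, adjusted p = 0.00333). The adult and fetal myosin heavy chains Myh6 (-0.33 ± 0.19) and Myh7 (0.01 ± 0.23) were not called at their brightest probe sets. Of 22 calcium-cycling genes, limma called 0 at the brightest probe set, with a median of 0.02. Dimmer probe sets of 2 of them did pass: 1 of 4 for the calcium pump Atp2a2 fell (-0.72 ± 0.18, adjusted p = 0.0167) and 2 of 5 for the sodium-calcium exchanger Slc8a1 rose, both without a call in the GAPDH model (adjusted p = 0.0779 and 0.0589). Phospholamban (Pln), the brake on that pump, read 8815, 3966 and 3912 in controls and 10003, 8681 and 8240 with salt. Here the control numbered 1 sat among the salt arrays and the change did not pass (0.79 ± 0.33, adjusted p = 0.178). Without that control it was called, at 1.18 (adjusted p = 0.0284). Gja1, the main ventricular connexin, also had its highest control in the array numbered 1, with 476, 129 and 169 against 1194, 532 and 673 with salt. It passed at 1.60 ± 0.46 (adjusted p = 0.0383) and did not once the model held the GAPDH ratio (1.36, adjusted p = 0.0875). Without single arrays its change ranged down to 1.28 and did not pass without the controls numbered 2 (adjusted p = 0.201) and 3 (0.147) or the salt arrays numbered 1 (0.164) and 3 (0.0774).

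The largest rise belonged to Alox15, a lipoxygenase that adds oxygen to arachidonic and linoleic acid. One of its probe sets read 104, 38.6 and 126 in controls and 9032, 6029 and 6758 with salt (5.87 ± 0.35, adjusted p = 1.15e-09). The other read 456, 463 and 411 against 7458, 7260 and 6272 (3.86 ± 0.21, adjusted p = 5.01e-10). Both probe sets separated the groups by more than any spread within them. Among 20 genes of eicosanoid synthesis and reception, 2 rose and 2 fell, with a median of 0.24. The receptor for prostaglandin F, Ptgfr, rose at all 3 of its probe sets, by 0.86 to 2.23; the widest of them read 114, 83.3 and 42.4 in controls and 586, 291 and 737 with salt. Prostacyclin synthase (Ptgis, -1.07 ± 0.23) and the prostacyclin receptor (Ptgir, -0.89 ± 0.24) fell. Ptgir (adjusted p = 0.0523) and the brightest Ptgfr probe set (adjusted p = 0.0551) were not called in the GAPDH model. Ptgis read 796, 915 and 918 in controls and 304, 402 and 506 with salt, with no overlap.

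Secreted stress and inflammatory proteins were also among the rises. Reg3b, a secreted lectin, read 51.8, 13.9 and 12.9 in controls and 3862, 922 and 5265 with salt (5.40 ± 0.96, adjusted p = 0.00145). The salt arrays themselves spanned a wide range, and each lay far above every control. Acinar cells of the pancreas also make Reg3b, and 0 of 11 exocrine pancreas markers were called; their summed intensity was 1226 to 1774 in controls and 1074 to 2326 with salt. Spp1, which encodes osteopontin, read 51.3, 66.6 and 74.3 in controls and 798, 340 and 1273 with salt (2.85 ± 0.44, adjusted p = 0.000456). Markers of leukocytes and macrophages, which also make osteopontin, had 0 of 12 called, and summed to 3537 to 4757 in controls and 3710 to 5666 with salt. Of 10 mast cell and neutrophil markers, 1 rose and 0 fell, with a median of 0.26, 7 above 0 and 3 below. The riser was S100a8, which read 23.3, 26.4 and 43.5 in controls and 244, 106 and 434 with salt (1.94 ± 0.36, adjusted p = 0.00196). S100a9 was not called (1.10 ± 0.38, adjusted p = 0.09). Of 36 cytokine, chemokine and acute phase genes, 3 rose and 2 fell, with a median of 0.07. Besides Reg3b and Spp1, Nfkbia, an inhibitor of NF-kappa-B, rose (0.96 ± 0.28), while the chemokine receptor gene Cxcr4 (-0.77 ± 0.17) and Crp (-1.21 ± 0.30) fell.

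**Figure D2:**
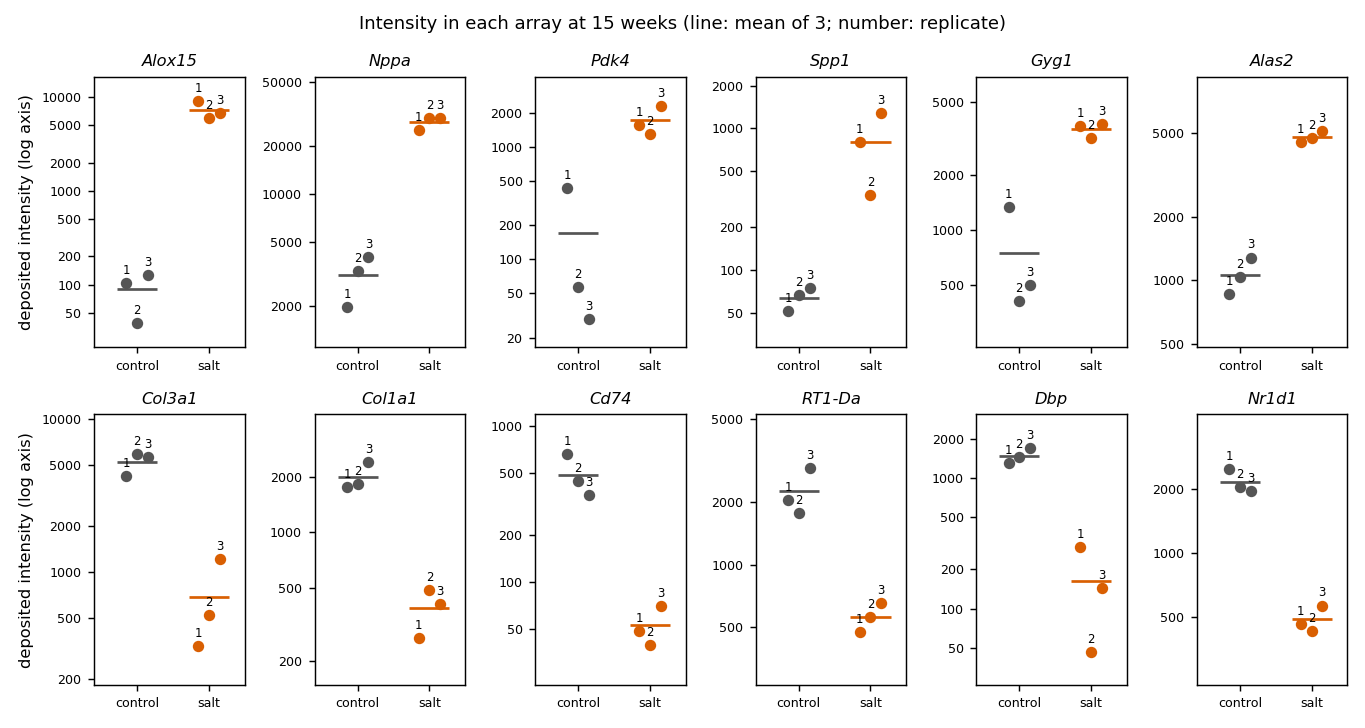
Deposited intensity (log axis) in each of the 3 control and 3 salt arrays for 12 genes at the probe set of the largest change, with the group mean as a line and the replicate number above each point. The 12 were taken from probe sets chosen because their groups do not overlap, so the lack of overlap was set by the choice. The control numbered 1 was the control nearest to the salt arrays in Pdk4, Gyg1, Col3a1, Col1a1 and Dbp. In Pdk4 and Gyg1 it also lay nearer to the salt mean than to the mean of the other controls.

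Glucose-handling genes changed in both directions, 6 up and 6 down of 29 measured, with a median of 0.10. Slc2a4, the insulin-responsive transporter, read 2423, 2873 and 2018 in controls and 1592, 1280 and 986 with salt (-0.91 ± 0.21, adjusted p = 0.012). Hexokinase 2 (Hk2, -1.01 ± 0.29), the muscle phosphofructokinase Pfkm (-0.89 ± 0.26), the muscle enolase Eno3 (-1.19 ± 0.29), the muscle phosphoglycerate mutase Pgam2 (-0.74 ± 0.18) and glycogen phosphorylase Pygb (-0.73 ± 0.19) fell with it. Another probe set of Hk2 (0.67), of Pfkm (0.32) and of Pygb (1.14) lay above 0 without being called. In the GAPDH model the calls of Hk2 (adjusted p = 0.0809) and, among the rises below, Pfkp (adjusted p = 0.0777) were lost. Slc2a1, the basal transporter, read 745, 544 and 856 in controls and 1168, 1039 and 1469 with salt (0.75 ± 0.22, adjusted p = 0.0391). The phosphofructokinases of liver and platelet type, Pfkl (0.71 ± 0.20) and Pfkp (0.93 ± 0.27), rose too. Gpd1, which shunts triose to glycerol phosphate, rose by 1.99 ± 0.34, and the lactate and pyruvate carrier Slc16a1 by 1.44 ± 0.29. Glycogenin (Gyg1), the primer of glycogen, rose at all 3 probe sets, by 0.89 to 2.37. At the widest, its controls read 1332, 413 and 503 and its salt arrays 3719, 3178 and 3797, so the control numbered 1 was again the nearest to salt.

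Regulators of pyruvate dehydrogenase, the gate between glycolysis and the citric acid cycle, were among those called. Pdk4, a kinase that shuts pyruvate dehydrogenase, read 426, 56.9 and 29.6 in controls and 1573, 1289 and 2310 with salt (3.55 ± 0.53, adjusted p = 0.000342). Every salt array was above every control, with the control numbered 1 far above the others, and with the GAPDH covariate the change was 3.08. Of the phosphatases that reopen the enzyme, Pdp1 rose, from 529.8, 128 and 254 to 1416, 423 and 775 (1.43 ± 0.42, adjusted p = 0.0411). Its groups overlapped, its control numbered 1 lay nearest to salt, and the call was lost in the GAPDH model (1.22, adjusted p = 0.0934). Pdp2 fell, reading 486, 672 and 385 in controls and 177, 167 and 128 with salt (-1.47 ± 0.26, adjusted p = 0.00138). These were the 3 called of 23 genes of pyruvate entry and the citric acid cycle. In fatty acid uptake and oxidation, 1 of 35 rose (the acyl-CoA thioesterase Acot2, 1.51 ± 0.45) and 1 fell (the acyl-CoA synthetase Acsl5, -0.83 ± 0.22), with a median of -0.06. Acot2 read 1644, 448 and 450 in controls and 2484, 1984 and 1783 with salt, so its control numbered 1 was the nearest to salt. Both calls were lost in the GAPDH model (Acot2 1.06, adjusted p = 0.0882, and Acsl5 -0.72, adjusted p = 0.0575).

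Among 37 genes of the respiratory chain and ATP synthase, 29 lay below 0 and 8 above, with a median of -0.24 beside -0.05 over all tested genes. Only Ndufs7, a subunit of complex I, was called (-0.69 ± 0.19, adjusted p = 0.0348), reading 8561, 9457 and 10385 in controls and 6289, 6570 and 4831 with salt. With the GAPDH covariate the median was -0.35. Cytosolic ribosomal protein genes had 0 of 37 called by limma and a median of -0.16 (-0.10 in the GAPDH model). Salt was lower without overlap in 5 of the 37, near the share over all tested genes (501 of 3830). Nmrk2, a muscle kinase that makes NAD from nicotinamide riboside, read 437, 576 and 610 in controls and 53.2, 66.3 and 41.4 with salt. It fell by 2.63 on the log2 scale (SE 0.27, adjusted p = 7.34e-06), with tight arrays in both groups. Gamt, which makes creatine, was the other of 16 genes of creatine, nucleotide and NAD metabolism to fall (-0.97 ± 0.28).

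Amino acid genes that were called all rose, 4 of 25, with a median of 0.08. Glutamine synthetase (Glul) rose at all 4 of its probe sets, by 1.29 to 1.72; the brightest read 2438, 1982 and 2025 in controls and 7069, 7476 and 6855 with salt (adjusted p = 6.29e-05). Monoamine oxidase A (Maoa), which breaks down catecholamines and gives off peroxide, read 1857, 1742 and 1624 in controls and 4173, 5494 and 8465 with salt (1.71 ± 0.25, adjusted p = 0.000342). Slc3a2, the heavy chain of several amino acid carriers, rose by 1.66 ± 0.32, and the ornithine aminotransferase Oat rose close to the threshold (adjusted p = 0.0482; 0.0908 in the GAPDH model). The cysteine dioxygenase Cdo1, among the 15 largest rises but not on this list, read 118, 76 and 195 in controls and 637, 289 and 1593 with salt (2.13 ± 0.44, adjusted p = 0.00472). Of 37 antioxidant genes, 5 rose and 1 fell, with a median of 0.07. The heme oxygenase Hmox1 read 463, 380 and 408 in controls and 1113, 1138 and 1833 with salt (1.58 ± 0.29, adjusted p = 0.00205). Gclm, the regulatory subunit for glutathione synthesis, rose by 0.99 to 1.10 at its 3 probe sets, and Gstm1, Mgst1 and Nqo1 rose by 0.71, 1.37 and 0.85, with Nqo1 not called in the GAPDH model (adjusted p = 0.0605). Extracellular superoxide dismutase (Sod3) fell by 1.16 on the log2 scale (SE 0.30).

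Genes that glucocorticoids or fasting are known to induce or repress had 5 rises and 2 falls among 16, with a median of 0.27. Pdk4, Glul and the cell cycle inhibitor Cdkn1a were among the rises. The transcription factor Cebpb rose at both probe sets, from 131, 22.5 and 41.4 to 314, 469 and 624 at the wider one (2.37 ± 0.35, adjusted p = 0.000353). Hsd11b1, the enzyme that regenerates active glucocorticoid in tissue, read 573, 674 and 803 in controls and 1880, 1010 and 3272 with salt (1.39 ± 0.30, adjusted p = 0.00691). The glucocorticoid receptor Nr3c1 (-0.81 ± 0.24) and the muscle ubiquitin ligase Trim63 (-0.89 ± 0.21) fell, Trim63 at both its probe sets, of which the dimmer was not called in the GAPDH model (adjusted p = 0.115).

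Of 10 collagen genes, 5 fell and 0 rose, with a median of -1.18. Col3a1, the chain of type III collagen, read 4222, 5936 and 5633 in controls and 330, 527 and 1210 with salt (-3.04 ± 0.32, adjusted p = 7.48e-06), and its other probe set fell by 2.00 on the log2 scale. Col1a1, of type I collagen, fell at all 4 of its probe sets; the widest change took it from 1773, 1829 and 2422 to 268, 486 and 408 (-2.28 ± 0.27, adjusted p = 3.97e-05). Col1a2 (-1.59 ± 0.28), Col15a1 (-1.77 ± 0.29) and Col5a1 (-1.42 ± 0.41) fell, and Col5a2 read 722, 797 and 698 against 214, 330 and 650 without passing (-0.95 ± 0.31, adjusted p = 0.0685). Col8a1, Col4a3, Col10a1 and Col12a1 were not called, with changes between -0.18 and 0.30. With the GAPDH covariate the median of the list was -0.83, and without the filter on low values -0.29.

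Of 36 other matrix genes, 8 fell and 1 rose, with a median of -0.27, which was -0.16 in the GAPDH model. The collagen chaperone Serpinh1 read 2562, 2319 and 1896 in controls and 1057, 495 and 422 with salt (-1.82 ± 0.28, adjusted p = 0.000499). The lysyl oxidase relative Loxl1 (-1.58 ± 0.37), the procollagen C-proteinase enhancer Pcolce (-1.33 ± 0.37), the elastic fibre protein Fbln5 (-1.10 ± 0.24) and the small proteoglycan Lum (-1.22 ± 0.30) fell as well, and Pcolce was not called in the GAPDH model (adjusted p = 0.0700). Vitronectin (Vtn) read 419, 576 and 455 in controls and 138, 104 and 65.9 with salt (-1.90 ± 0.20, adjusted p = 7.48e-06). Tgfb1 and Tgfb3, ligands that drive matrix synthesis, fell by 1.18 and 1.16 on the log2 scale. Sparc fell at 3 of its 4 probe sets, by 1.06 to 1.55, and was not called at the brightest (-0.33 ± 0.18). The 1 that rose was Spp1. Matrix proteases and their inhibitors had 1 of 22 up (the cathepsin Ctsl, 0.83 ± 0.22), 0 down and a median of 0.11 (0.17 in the GAPDH model).

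Of 13 fibroblast markers, 4 fell and 0 rose, with a median of -0.61; 3 of the 4 are the collagen genes Col1a1, Col1a2 and Col3a1, and the fourth is Lum. The summed intensity of the 13 was 42372 to 54030 in controls and 18873 to 36855 with salt. By sign, 10 of the 13 lay below 0 and 3 above. Salt was lower without overlap in 6 of them, beside 501 of all 3830 tested genes. The other 9 were not called. Among them, the fibroblast transcription factor Tcf21 read 79.6, 88.2 and 70.2 against 31.6, 43.2 and 40.5 (-0.61 ± 0.29), and the receptor Pdgfra 623, 1171 and 1141 against 418, 632 and 651 (-0.72 ± 0.29). The part of fibroblast number in the collagen falls was not tested.

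Proteins of the major histocompatibility complex (MHC) class II display peptides on macrophages, dendritic cells and B cells, and their genes share a promoter module read by the transactivator of the class. Of 9 measured genes of class II presentation, 5 fell and 0 rose, with a median of -0.79. RT1-Da, the alpha chain of a class II pair, read 2052, 1779 and 2920 in controls and 477, 561 and 653 with salt (-1.90 ± 0.28, adjusted p = 0.000342). Cd74, the invariant chain that escorts class II proteins, fell at all 4 of its probe sets, by 0.93 to 2.48 on the log2 scale; the widest change took it from 655, 443 and 357 to 48, 39.3 and 69.9 (adjusted p = 2.27e-05). RT1-Bb (-1.04 ± 0.26), RT1-Db1 (-0.95 ± 0.26) and RT1-DMb (-0.79 ± 0.20) fell, RT1-Db1 without a call in the GAPDH model (adjusted p = 0.0687). RT1-Ba was not called at its brightest probe set (-0.67 ± 0.32) and fell at 1 of the other 2, a call lost with the GAPDH covariate (-1.38, adjusted p = 0.0575). RT1-DMa (0.36 ± 0.22), RT1-DOa (-0.25 ± 0.21) and Ctss (0.32 ± 0.41) were not called.

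To show what these class II genes share in sequence, the promoter windows of RefSeq (build GRCr8, 250 bases before to 50 after each gene start) were searched on both strands for CTGATTGG. These are letters of the Y box, an element of class II promoters, which holds an inverted CCAAT box (ATTGG). The letters were chosen after the values had been seen. Of the 9 genes 8 had a window, and 5 of the 8 (62.5%) held the letters, each on the gene's own strand: RT1-Da, RT1-Db1, RT1-Ba, RT1-Bb and RT1-DOa. Of all 33469 windows 1172 held them (3.5%). The match began 52 bases before the start in RT1-Da, 83 in RT1-Db1, 46 in RT1-Ba, 64 in RT1-Bb and 110 in RT1-DOa. The window of Cd74, which fell at every probe set, did not hold the letters, nor did those of RT1-DMa and Ctss, and RT1-DMb had no window. The windows of the 4 genes that held the letters and had a probe set that fell are shown; all lie in the class II region of chromosome 20, and capitals mark the letters. Coordinates are chr20:4515165-4515464 (plus strand) for RT1-Da, chr20:4560113-4560412 (minus) for RT1-Db1, chr20:4576807-4577106 (plus) for RT1-Ba and chr20:4604069-4604368 (minus) for RT1-Bb.
RT1-Da: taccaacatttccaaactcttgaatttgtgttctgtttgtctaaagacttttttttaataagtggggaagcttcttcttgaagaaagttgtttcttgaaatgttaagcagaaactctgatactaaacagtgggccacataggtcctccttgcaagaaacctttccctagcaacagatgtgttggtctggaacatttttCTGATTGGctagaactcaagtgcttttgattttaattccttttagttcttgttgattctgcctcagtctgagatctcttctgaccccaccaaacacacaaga
RT1-Db1: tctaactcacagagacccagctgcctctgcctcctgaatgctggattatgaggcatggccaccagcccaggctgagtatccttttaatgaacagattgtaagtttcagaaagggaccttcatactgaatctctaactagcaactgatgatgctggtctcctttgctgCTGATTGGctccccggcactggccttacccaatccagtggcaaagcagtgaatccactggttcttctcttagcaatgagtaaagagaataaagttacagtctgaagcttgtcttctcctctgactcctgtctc
RT1-Ba: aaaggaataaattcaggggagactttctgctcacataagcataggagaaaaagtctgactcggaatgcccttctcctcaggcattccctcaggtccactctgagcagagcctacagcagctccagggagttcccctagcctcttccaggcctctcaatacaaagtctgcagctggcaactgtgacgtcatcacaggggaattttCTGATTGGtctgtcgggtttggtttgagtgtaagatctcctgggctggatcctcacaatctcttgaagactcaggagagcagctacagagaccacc
RT1-Bb: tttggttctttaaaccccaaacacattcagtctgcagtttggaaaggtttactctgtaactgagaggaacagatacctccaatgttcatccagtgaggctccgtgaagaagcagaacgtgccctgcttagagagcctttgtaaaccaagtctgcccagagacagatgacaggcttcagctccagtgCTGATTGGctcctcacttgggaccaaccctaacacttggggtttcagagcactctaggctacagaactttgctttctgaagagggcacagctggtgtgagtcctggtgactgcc
A match is a description of the letters, and binding was not measured.

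The class I and interferon genes lay low as a group, with 19 of 20 below 0, a median of -0.56, 3 that fell and 0 that rose. Tap1, which pumps peptides to class I proteins, fell at both probe sets, reading 538, 573 and 556 in controls and 201, 260 and 250.2 with salt at the brighter one (-1.11 ± 0.26, adjusted p = 0.0136). The proteasome parts Psmb9 (-1.44 ± 0.39) and Psme2 (-0.86 ± 0.25), which trim such peptides, fell. Salt was lower without overlap in 12 of the 20, beside 501 of all 3830 tested genes. Mx2 was among the 12, with 175, 218 and 117 against 30.3, 55.8 and 31.7 (-1.39 ± 0.44, adjusted p = 0.0646). The median was -0.36 with the GAPDH covariate, and Psmb9 was then not called (adjusted p = 0.0629). Psme2 kept its call narrowly in that model (adjusted p = 0.0498) and lost it in 14 of 20 alternative fits. Rsad2, an interferon-induced antiviral protein that is not on the list, rose, from 305, 519 and 593 to 1397, 1621 and 1588 (1.66, adjusted p = 0.00356), as did its other probe set. General leukocyte markers had 0 of 12 called by limma and a median of -0.28 (-0.18 in the GAPDH model), with 7 below 0 and 5 above. Salt was lower without overlap in 4 of the 12 (501 of all 3830 tested genes) and higher in 1 (314 of all). Ptprc, present on all leukocytes, overlapped, at 196, 217 and 313 in controls and 113, 259 and 147 with salt. Lymphocyte markers had 0 of 9 called and summed to 1607 to 1982 in controls and 1125 to 2128 with salt. The part of immune cell number in the class II falls was not tested.

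Of 6 measured red blood cell transcripts, 3 rose and 0 fell, with all 6 above 0 and a median of 0.62. Alas2, the first enzyme of erythroid heme synthesis, read 862, 1032 and 1283 in controls and 4562, 4749 and 5144 with salt (2.16 ± 0.25, adjusted p = 2.16e-05). Slc4a1, the anion exchanger of the red cell membrane, read 419, 429 and 442 against 2059, 1493 and 1765 (1.94 ± 0.20, adjusted p = 7.34e-06). The beta-globin gene Hbb-b1 rose by 0.70 ± 0.20, from 12606, 13926 and 19990 to 20899, 32699 and 22176, and Hbb, a near copy that may share its signal, did not pass (0.52 ± 0.17, adjusted p = 0.0689). The summed intensity of the 6 was 31997 to 45691 in controls and 55155 to 73940 with salt. That sum came mostly from Hbb-b1 and Hbb, and Hbb read 16885, 20347 and 22774 in controls and 25295, 32760 and 27938 with salt. How much blood each ventricle held is not given in the labels.

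Of 10 clock genes, 2 fell and 0 rose, with a median of -0.41. Dbp, a transcription factor driven directly by the clock, read 1310, 1449 and 1714 in controls and 295, 46.8 and 144 with salt (-3.12 ± 0.56, adjusted p = 0.00174), and its second probe set fell by 2.52 on the log2 scale. Nr1d1, the repressor REV-ERB alpha, read 2485, 2044 and 1956 in controls and 463, 431 and 565 with salt (-2.07 ± 0.27, adjusted p = 0.000107), and its second probe set fell by 1.42. Both genes were lower in every salt array than in any control at both probe sets. Bmal1, which peaks in the opposite phase, read 23.8, 42.3 and 30.6 in controls and 150, 33.2 and 256 with salt, with overlap (1.16 ± 0.52, adjusted p = 0.216). The labels used here give no hour of collection, so clock time and diet cannot be told apart for these genes.

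The clock activators bind the E-box CACGTG, which reads the same on both strands. It stood in the promoter windows of 4 of the 8 clock genes that had one (Nr1d1, Tef, Bhlhe40 and Bhlhe41), beside 2148 of 33469 windows (6.42%). The window of Dbp did not hold these letters. Of the 4, only Nr1d1 was called, and Tef changed by 0.09 ± 0.22. The Nr1d1 window at chr10:84229405-84229704 (GRCr8, minus strand, from RefSeq) is shown because Nr1d1 fell at both probe sets; the capitals mark the E-box, which begins 191 bases before the start, and a second Nr1d1 window did not hold it. The D-box TTATGNAA was found in Per2 (1226 windows in all, 3.66%) and the REV-ERB element TAGGTCA in Bmal1 (880 in all, 2.63%); these motifs do not overlap the E-box in letters.
Nr1d1: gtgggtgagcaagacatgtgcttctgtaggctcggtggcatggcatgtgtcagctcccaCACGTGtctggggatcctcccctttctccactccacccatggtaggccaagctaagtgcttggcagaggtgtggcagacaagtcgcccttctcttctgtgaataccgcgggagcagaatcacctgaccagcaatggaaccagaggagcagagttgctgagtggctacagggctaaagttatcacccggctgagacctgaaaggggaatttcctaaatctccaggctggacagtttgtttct

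Of 32 genes for actins, tubulins and annexins, 5 fell and 1 rose, with a median of -0.31. Cytoplasmic beta-actin (Actb) read 9097, 12519 and 12420 in controls and 3531, 3696 and 4348 with salt (-1.54 ± 0.20, adjusted p = 7.05e-05). Actb is a common reference gene, and here it separated the groups. Gamma-actin (Actg1, -0.92 ± 0.21) and the tubulins Tuba4a (-1.96 ± 0.32), Tuba1b (-0.75 ± 0.19) and Tubb5 (-0.73 ± 0.22) fell with it, Tubb5 without a call in the GAPDH model (adjusted p = 0.0779). The annexin Anxa5, which binds exposed phosphatidylserine, rose at both probe sets, by 1.05 and 1.08. Of 27 cell cycle genes, 2 fell (the G1 cyclin Ccnd1 and the topoisomerase Top2a, -1.11 ± 0.28) and 1 rose, the inhibitor Cdkn1a, with a median of -0.14 (-0.09 in the GAPDH model).

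Vessel genes had 3 falls and 0 rises among 19, with a median of -0.18, which was -0.01 in the GAPDH model. Vegfa, the main growth factor of endothelium, fell at 3 of 4 probe sets, and the brightest read 2277, 2257 and 2402 in controls and 1370, 1067 and 662 with salt (-1.19 ± 0.24, adjusted p = 0.00447). Its co-receptor Nrp1 read 1476, 1907 and 1609 in controls and 838, 525 and 662 with salt (-1.27 ± 0.20, adjusted p = 0.000546). Caveolin 1 (Cav1) fell by 0.78 on the log2 scale (adjusted p = 0.0482) and was not called in the GAPDH model (adjusted p = 0.0643). The endothelial adhesion protein Pecam1 read 1027, 763 and 756 against 550.1, 534 and 492 without passing (-0.64 ± 0.24, adjusted p = 0.13). Summed over the list, intensity was 22364 to 24661 in controls and 13074 to 18697 with salt, and the part of vessel density was not tested. Of 28 heat shock and unfolded protein genes, 2 fell, the chaperone Hspa5 (-1.08 ± 0.21) and the disulfide isomerase Pdia3 (-0.99 ± 0.26), with a median of -0.27.

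**Figure D3:**
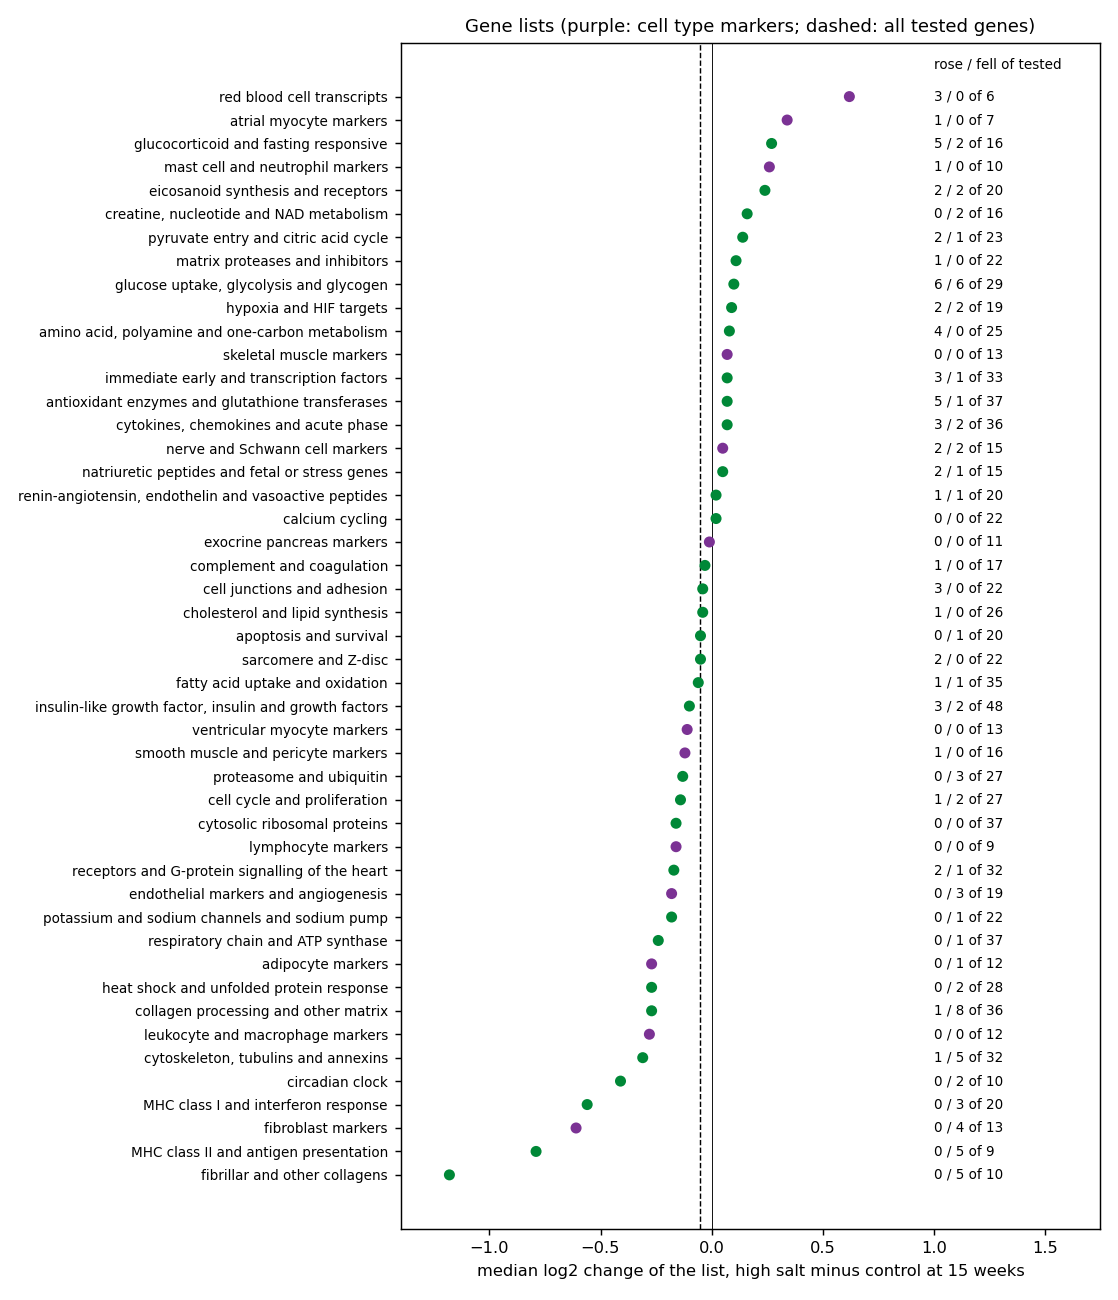
Median log2 change of each of 47 gene lists at 15 weeks, each gene taken at its brightest tested probe set, with the counts that rose, fell and were tested at the right. Collagens (-1.18) and MHC class II genes (-0.79) lie lowest and red blood cell transcripts (0.62) highest; the dashed line is the median of all 3830 tested genes, -0.05.

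The array measures many genes more than once, which allowed a check within the same RNA. Some probe sets of a gene carry the same sequence identifier in their names, as for Cd74, Col1a1, Glul, Gyg1, Gclm and G3bp2. The probe sets of a gene are therefore not independent measurements, and the counts below do not set such pairs apart. Of 3830 tested genes, 1125 had at least 2 tested probe sets (822 with 2, 226 with 3 and 77 with 4 or more), 2654 probe sets in all, of which 252 (9.5%) were called. In 694 of these genes (61.7%) all probe sets had the same sign. Of the 183 genes with a called probe set, 155 (84.7%) had 1 sign, against 539 of 942 (57.2%) of the genes with none called. A call depends on the size of the change, so the larger share among called genes is a description. All probe sets were called in the same direction in 37 genes, of which 23 rose and 14 fell. In 145 genes only some were called, 118 of them with all probe sets of 1 sign, and in 80 of the 145 the brightest probe set was among those called. A called probe set had another probe set of its gene called the same way in 178 of 415 pairs (42.9%), and of the same sign in 377 (90.8%). The median gap between the lowest and highest change of a gene was 0.35 on the log2 scale, and 0.72 among genes with a call.

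Besides Nppa, Glul, Cd74 and Col1a1 with 4 of 4, the genes called at 3 of 3 probe sets were Gyg1, Ptgfr, Gclm, Sorbs2, a Z-disc adaptor (0.82 to 1.34), the stress granule protein G3bp2 (0.96 to 1.24) and the kinase Map3k1 (-1.17 to -0.99). In the GAPDH model 1 probe set each of Ptgfr, Sorbs2 and G3bp2 was not called. Ccnd1 fell at 3 of 5 probe sets. They read from 793, 1255 and 1215 to 125, 312 and 210 at the widest (-2.18 ± 0.27, adjusted p = 6.04e-05), while the other 2 were at 0.20 ± 0.24 and 0.63 ± 0.36. Only Hadha, the alpha subunit of the mitochondrial trifunctional protein, was called in both directions. Its brightest probe set read 8861, 7950 and 8209 against 6174, 6586 and 5654 (-0.44 ± 0.17, not called), the second fell from 8320.0, 7768 and 8777 to 5709, 6047 and 4312 (-0.64 ± 0.19, adjusted p = 0.0411), and the dimmest rose from 847, 515 and 592 to 1770.4, 1602 and 1209.5 (1.19 ± 0.29, adjusted p = 0.0159). No direction can be given for Hadha from these data.

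The widest gaps marked genes whose value depends on the probe set read. Ncam1, a neural and myocyte adhesion molecule, rose at 1 probe set, from 60.8, 183 and 172 to 939, 1098 and 1224 (2.74 ± 0.36, adjusted p = 9.01e-05), and its other probe set read 157, 221 and 209 against 38.3, 285 and 275 (-0.23 ± 0.40). Pdha1, a subunit of pyruvate dehydrogenase, was at -0.18 ± 0.28 at the brighter probe set and rose by 1.78 ± 0.38 at the dimmer, where the controls split into 2415, 612 and 688 against 3551, 3179 and 4080. Crp had a gap of 2.06, Slc4a1 of 1.98, Gpd2 of 1.97, Gch1 of 1.94, Pygb of 1.86 and Hadha of 1.83. Alox15 had a gap of 2.01 with both probe sets called. Acta2, a smooth muscle actin, fell at 1 of 3 probe sets (-1.92 ± 0.33) and was not called at the brightest (-0.74 ± 0.26). The sequences and positions of the probes were not used here, so whether such gaps reflect isoforms, the distance from the transcript's end or other targets was not tested.

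**Figure D4:**
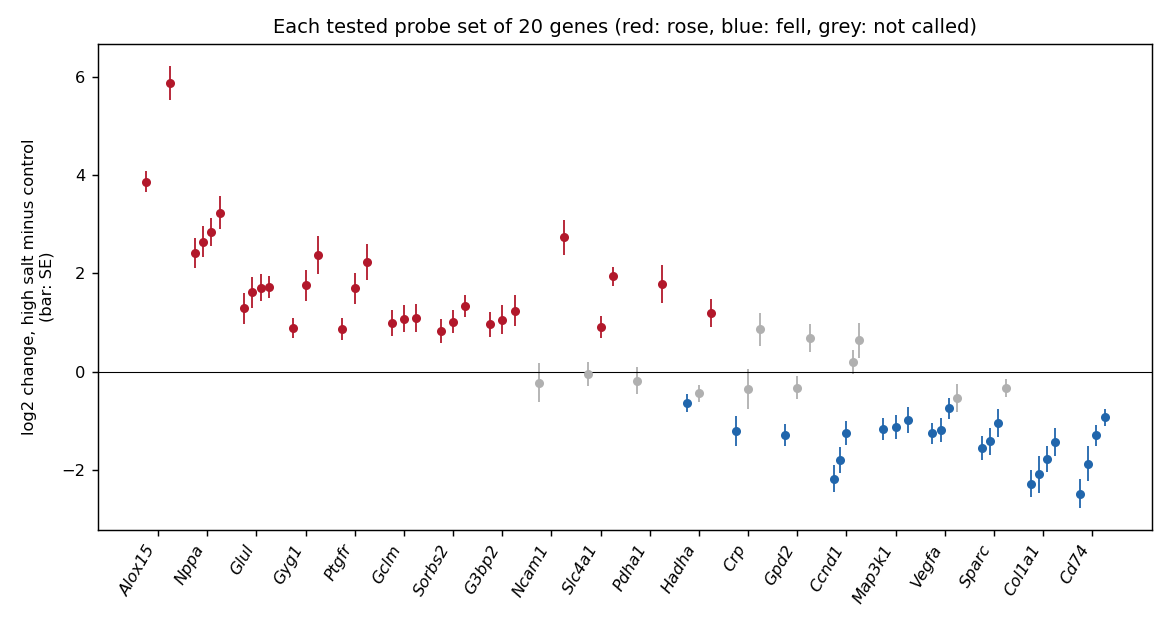
Log2 change with salt at 15 weeks, with its SE as a bar, for each tested probe set of 20 genes. All probe sets of Nppa, Glul, Col1a1 and Cd74 lie on 1 side and were called, those of Ncam1, Slc4a1, Pdha1, Crp, Gpd2 and Ccnd1 lie on both sides of 0, and Hadha has 1 red and 1 blue point.

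The same diet was compared with its own controls at 6 weeks, on arrays that share none with those of 15 weeks, within the same model. At 6 weeks 940 probe sets were called (14.3%), and 162 were called at both weeks, which is 34.5% of those called at 15 weeks and 17.2% of those called at 6. Of the 162, 146 had the same sign and 16 the opposite. The controls of 6 weeks had GAPDH ratios of 1.58, 2.48 and 3.99, against 1.04 to 1.17 in the salt arrays of that week. For Nppa no difference between the weeks was called, at 3.23 ± 0.33 and 2.84 at the same probe set, with a difference of 0.39 (adjusted p = 0.738). Pdk4 and Dbp also showed no called difference, at 3.55 and 3.78 and at -3.12 and -3.45. A missed threshold does not show that such changes were equal.

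The effect of salt itself differed between the weeks at 99 probe sets (1.51%), tested as the change at 15 weeks minus that at 6 weeks. Once the GAPDH ratio entered the model there were 34, of which 23 were among the 99. Among the 469 called at 15 weeks, 69 had such a difference (38 rose and 31 fell), and 57 of these had the opposite sign at 6 weeks. Choosing by a called difference favours opposite signs. Of all 215 rises at 15 weeks, 154 lay above 0 at 6 weeks, and of all 254 falls, 207 lay below 0. Over all tested genes the median change at 6 weeks was -0.19, so most genes lay below 0 at that week. The count of falls below 0 is therefore a description and does not measure agreement between the weeks. Alox15 had the largest difference between the weeks, at 7.14 ± 0.49 (adjusted p = 3.53e-08). At that probe set the controls of 6 weeks read 47.8, 116 and 225. The salt arrays of 6 weeks read 18.6, 30.7 and 21.4, a fall of 1.28 on the log2 scale. Col3a1 (-3.04 at 15 weeks, 0.51 at 6 weeks) and Cd74 (-2.48 and 1.24) differed in the downward direction (adjusted p = 0.00033 and 3.26e-05). Both remained called with the covariate, at -3.43 and -3.48. Nppb differed as well, at -0.37 and 1.91 (difference -2.28, adjusted p = 0.00426), though not with the covariate (-1.68, adjusted p = 0.076).

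**Figure D5:**
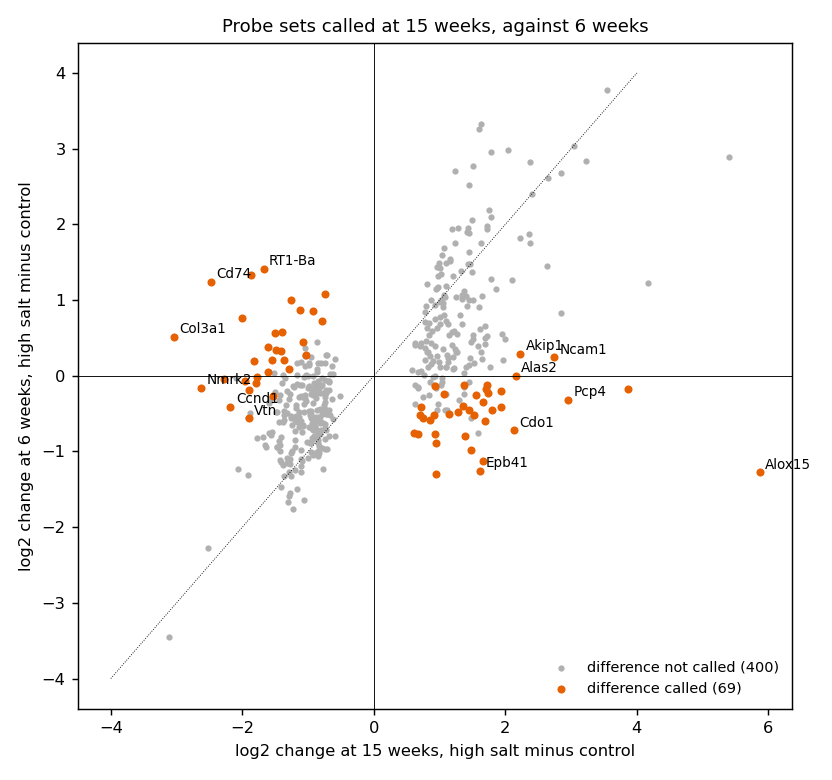
Log2 change with salt at 6 weeks (vertical axis) against that at 15 weeks (horizontal axis) for the 469 probe sets called at 15 weeks; the dotted line marks equal changes. The 69 orange points differed between the weeks, and Alox15, Col3a1 and Cd74 lie farthest from the line.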

How the data were processed

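RNA of rat left ventricle had been hybridised to an Affymetrix rat array, 1 array per column of the deposited table of 8799 probe sets. The deposited values are linear intensities, 1 per probe set and array; the method that summarised probes to probe sets is not given in the sources used here. Their trimmed means, leaving out 2% at each end, were near 501 in every column (500.77 to 501.02), so the deposited scale was kept. Values were used as log2(intensity + 40), after which 59 array control probe sets were removed. Probe sets whose mean level lay under the 25th percentile were not tested (2185 of 8740).

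Of the 24 columns in 8 groups of 3, 4 were left out, because exercise arrays 2 and 3 of 3 weeks were identical to control arrays 2 and 3 of 3 weeks. The other 20 were fitted together with limma 3.58.1 in R 4.3.3 (lmFit, 1 mean per group, eBayes with an intensity trend, 12 residual degrees of freedom), and p-values were adjusted by Benjamini-Hochberg over 6555 probe sets. The number of arrays limits the precision. The model was tested on simulated data. The GAPDH ratio, array weights, quantile normalization, other pseudocounts and filters, fewer or more arrays, a replicate block and leaving out single arrays were tried as alternatives.

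Probe sets were named through the platform annotation: 7018 had 1 gene symbol, 308 several and 1473 none, and only those with 1 symbol are named; 72 called probe sets had none or several. Genes of a list were taken at their brightest tested probe set. The members and lists were chosen with earlier results of these data known. Named genes were the 15 largest non-overlapping changes each way, up to 4 of each list by p, a set of 16 cardiac genes, the genes of closest or least agreement between probe sets, and the 5 largest differences between weeks each way; list members beyond these, such as the further called members, those named as uncalled and the non-leading probe sets, were chosen after their values were seen. Promoter windows came from RefSeq (GRCr8).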

Additional observations from a re-analysis of the deposited data

Results flagged for a closer look

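The effect of salt differed between 15 and 6 weeks, by limma's test of the difference itself, in the 22 probe sets given here. They come from the largest changes, the set of cardiac genes and the largest differences between weeks. Other named probe sets also had a called difference and are not counted here, such as those of S100a8, Hsd11b1, Hspa5 and Actb. Values are the log2 change at 15 weeks minus that at 6 weeks. Higher at 15 weeks were Alox15 at both probe sets (7.14 and 4.04), Pcp4, a calmodulin regulator (3.27), Epb41, a red cell membrane skeleton protein (2.87), Cdo1 (2.85), the interferon-induced Rsad2 (2.79), Ncam1 (2.49), Alas2 (2.16) and Akip1, which binds protein kinase A (1.94). Lower at 15 weeks were Cd74 (-3.72), Col3a1 (-3.55), RT1-Ba (-3.09), Alas1, the heme synthesis enzyme of most tissues (-2.95), Ndufs8, a complex I subunit (-2.75), Nmrk2 (-2.47), Nppb (-2.28), Col1a1 (-2.24), Serpinh1 (-2.01), Tuba4a (-1.89), Ccnd1 (-1.77), RT1-Da (-1.71) and Vtn (-1.34). With the GAPDH ratio as a covariate all 22 kept their sign and 9 were called: both of Alox15, Cd74, Col1a1, Col3a1, Nmrk2, RT1-Ba, RT1-Da and Serpinh1. Ndufs8 was called in 1 of 12 fits that left out 1 array of either week, and Akip1 and Tuba4a in 4 each.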

How the results depend on the processing

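For 234 probe sets of the naming rule, 139 of them called, 20 alternatives gave 0 reversals, 4078 values on the same side of the threshold, 422 that lost the call and 137 that gained it; genes named beyond the rule were not recomputed this way. A reversal was a change of sign where either fit had a call, so sign changes between uncalled values counted as the same side. Besides the fit with 1 control, 61 of the 139 lost the call at least once, most often without the control numbered 2 (52). Counting that fit, Psme2 and Oat lost the call in 14 alternatives each, Gamt in 10, and Ndufs7 and Hbb-b1 in 9 each. With only the 6 arrays of 15 weeks 266 probe sets were called (139 rose, 127 fell), with array weights 1039 (446 and 593), and with the control numbered 1 as the only 15-week control, a fit added after the data were seen in which that array is assumed to vary like the other groups, 56 (32 and 24). Leaving out 1 array gave 213 to 542 called, 117 to 280 that rose and 96 to 262 that fell, and 57 to 135 called list genes beside 112. The differences between weeks, 99, became 181 with all 24 columns, 34 with the GAPDH covariate and 54 to 294 without 1 array, the ends being without the 6-week controls numbered 2 and 1. No gene was called both ways (0, beside 1) without the filter or with the replicate block. The causes were not tested. Of 611 recomputed list medians 57 changed sign, 2 of them from a size over 0.2: leukocyte markers from -0.28 to 0.02 without the filter, and mast cell and neutrophil markers from 0.26 to -0.01 without the salt array numbered 2. The replicate block gave 410 calls, 387 of them shared; same-numbered arrays deviated together at 0.13, -0.03 and -0.17, so the numbers were not taken as pairs. Signal over background limits the dim probe sets: 22 to 30.4% of values per 15-week array lay below 40.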

Other observations

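Growth factor and insulin signalling genes had 3 rises and 2 falls among 48, with a median of -0.10. The insulin receptor (Insr) read 83.8, 44.5 and 154 in controls and 310, 319 and 221 with salt (1.34 ± 0.30), and Pik3r1, the regulatory subunit of the kinase below it, 16.4, 14.5 and 18.2 against 174, 75.5 and 184 (1.65 ± 0.28). Fgf1 rose by 1.51 ± 0.32. The platelet-derived growth factor Pdgfa read 354, 312 and 176 in controls and 46.7, 78.9 and 56.1 with salt (-1.64 ± 0.37), and the growth hormone receptor Ghr fell (-0.73 ± 0.22; adjusted p = 0.0657 in the GAPDH model).

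Of 32 receptor and G-protein signalling genes, 2 rose and 1 fell. Rgs4, which shortens G-protein signals, read 178, 153 and 102 in controls and 12.1, 30.2 and 17.2 with salt (-1.61 ± 0.24). The cyclic AMP genes Prkar1a (0.97 ± 0.24) and Pde4d (1.09 ± 0.28) rose, both with the control numbered 1 nearest to salt, and Pde4d was not called in the GAPDH model (adjusted p = 0.0526). Kcnj8, a pore subunit of ATP-sensitive potassium channels, was the 1 called of 22 channel and pump genes, at 532, 532 and 554 against 133, 148 and 216 (-1.52 ± 0.28). Among 33 early response and transcription factors, the cyclic AMP factor Crem (1.76 ± 0.36) and the cardiac factor Gata6 (1.14 ± 0.24) rose besides Cebpb, and Klf6 (-1.08 ± 0.26) fell. Of 15 nerve and Schwann cell markers, Ncam1 and Pcp4 rose, and the myelin protein Pmp22 (-0.84 ± 0.21) and the neuronal filament Prph (-0.93 ± 0.26) fell, Prph without a call in the GAPDH model (adjusted p = 0.0864).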
